A study of Homo sapiens with 4 samples.

Results

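MYC, PVT1 and CCAT1 are 3 transcripts of band 8q24, and their SAF-A CLIP-seq peaks in HCT116 cells are described here. The HCT116 line is an established line of human colorectal carcinoma, and SAF-A (scaffold attachment factor A, also named hnRNP U) is an abundant nuclear protein that binds RNA and chromatin. In CLIP-seq, ultraviolet light fixes a protein to the RNA it touches, the protein is pulled down with an antibody and the attached RNA fragments are sequenced. The series held 2 groups of 2 samples, all of HCT116 cells with wild-type SAF-A. All were crosslinked with ultraviolet light of the same wavelength and the same energy per area. The groups were a pull-down with a mouse monoclonal SAF-A antibody, and the matching input. The input was taken from the same lysates before the pull-down and cut from the membrane at the same size range. No sample lacking SAF-A or with another antibody was analysed here, and the labels do not state whether the replicates were separate cultures. Each p-value therefore reaches no further than the spread between the deposited samples, and that spread may be technical. Where a model was fitted over many features at once, that spread was in part pooled over them.

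A peak belonged to a gene when it lay on the gene's strand with its midpoint inside the gene, and the rest of a surrounding 1200 kb stretch served as the local background, strand by strand. In GRCh37 positions, MYC lies at chr8:128748315-128753680 on the plus strand, PVT1 at chr8:128806779-129113499 on the plus strand, starting 53.1 kb past the end of MYC, and CCAT1 at chr8:128219629-128231333 on the minus strand, 517 kb from MYC. The 3 genes held 355 of the 278959 peaks in the 4 lists, and the local background held 142. By sample the genes held 16 of 29386 peaks in input 1, 22 of 42256 in input 2, 134 of 96061 in pull-down 1 and 183 of 111256 in pull-down 2. Because the lists differ in length, counts are also given per 10000 listed peaks. A peak says only that a stretch passed the authors' caller: read depth was unknown, and intervals on counts of peaks cover counting error only.

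MYC encodes a transcription factor that drives growth and proliferation, and its mature mRNA is spliced, exported and short-lived. PVT1 is a long noncoding RNA gene beside MYC that is often co-amplified with it in tumours, and it also hosts several microRNAs. CCAT1, colon cancer associated transcript 1, is a noncoding RNA transcribed from an enhancer region of MYC and is strongly expressed in colorectal tumours. SAF-A is known for binding nascent and intron-containing RNA in the nucleus, and the locus places a short coding gene next to noncoding transcripts on both strands.

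Peaks of PVT1 made up a larger share of the pull-down lists than of the input lists, peaks of MYC a smaller share, and CCAT1 had peaks in the pull-downs alone. PVT1 held 13 peaks in input 1, 17 in input 2, 129 in pull-down 1 and 177 in pull-down 2. Per 10000 listed peaks these counts were 4.42 and 4.02 (inputs) against 13.4 and 15.9 (pull-downs). Both pull-downs lay above both inputs, with means of 14.7 ± 1.75 (SD, n = 2) and 4.22 ± 0.28 (SD, n = 2), a ratio of 3.47. MYC held 3 and 5 input peaks against 1 and 2 pull-down peaks, and CCAT1 held 0 in each input and 4 in each pull-down. The plot of peak shares by list sets the genes beside their surroundings.

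**Figure D1:**
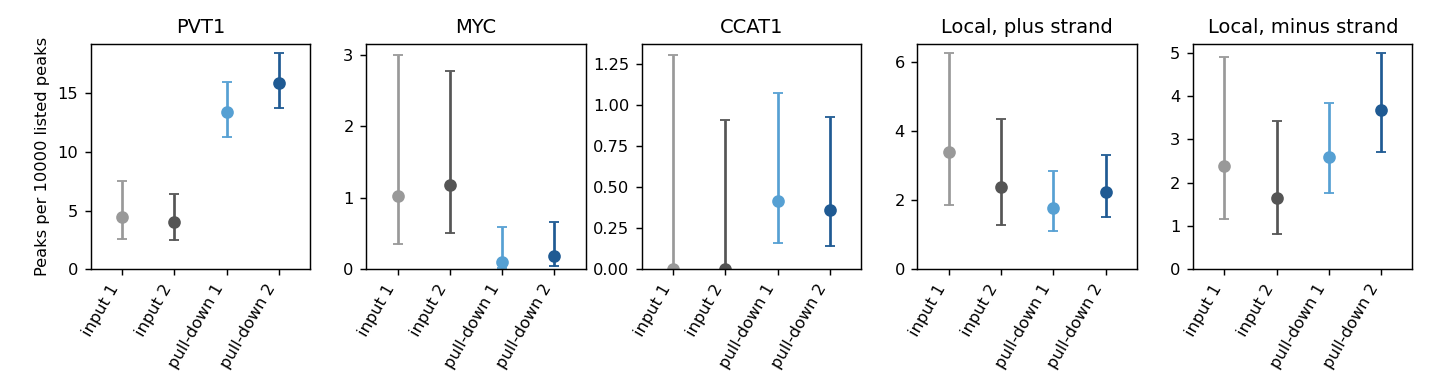
Peaks per 10000 listed peaks in each of the 4 lists, for PVT1, MYC, CCAT1 and the local background of each strand; points are single lists, bars are 95% Wilson intervals for counting error, and each panel has its own linear axis from 0. The pull-down points of PVT1 sit at 13.4 and 15.9 and its input points at 4.42 and 4.02, whereas MYC is higher in the inputs and CCAT1 is at 0 there.

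The share of PVT1 was tested with limma, a linear model fitted here to log2 peak shares of 1029 features: the 100 kb windows of either strand across the genome with a mean of at least 5 peaks per list, PVT1, and the local background of each strand. PVT1 passed that minimum in the inputs alone. Its log2 difference, pull-down over input, was 1.75 (SE 0.23, adjusted p = 0.000587 by limma with Benjamini-Hochberg adjustment), higher in 2 of 2 pull-downs. The limma p-value takes its variance in part from the other features. An exact permutation test of the PVT1 share per 10000 listed peaks gave a two-sided p of 0.333, the smallest that 2 against 2 allows. In the limma fit 14.7% of features were higher in the pull-downs and 39.8% were lower, and both pull-downs lay above both inputs in 29.5% of features. The median feature stood at a log2 difference of -0.59, and PVT1 ranked 96 of 1029 from the top. Higher shares were more common among features with more peaks. With a minimum mean of 10 peaks, 81 of 190 features were called higher and 63 lower. The median feature then stood at 0.47, and PVT1 ranked 45 of 190 from the top. MYC and CCAT1 held too few peaks to enter the fit and were not tested in it.

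The call for PVT1 was lost in lists of equal length. When every list was shortened to its 29386 best-scoring peaks, PVT1 kept 13, 6, 6 and 9 peaks in input 1, input 2, pull-down 1 and pull-down 2, and its log2 difference was -0.25 (adjusted p = 0.686 by limma). In those shortened lists the lowest score was 10 and 13 for the inputs but 30 and 33 for the pull-downs, the median feature stood at -2.21, and 0 of 142 tested features were higher in the pull-downs by limma while 96 were lower. When each list kept its better-scoring 50% instead, PVT1 held 2, 3, 25 and 31 peaks and its log2 difference was 1.71 (adjusted p = 0.0018 by limma). With a common minimum score in all lists, chosen after seeing the data, the log2 difference was 1.42 at a score of 15 or more (6, 6, 51 and 60 peaks) and 0.82 at 25 or more (2, 2, 11 and 21 peaks), with no test.

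Around PVT1, the rest of the plus strand did not pass the test. The local background of the plus strand held 10, 10, 17 and 25 peaks in input 1, input 2, pull-down 1 and pull-down 2, which per 10000 listed peaks gave 3.40, 2.37, 1.77 and 2.25. Its log2 difference was -0.54 (SE 0.29, adjusted p = 0.134 by limma), and it turned to 0.06 when each list was centred on its median window. Per kb, PVT1 was 3.76 and 4.92 times as dense as this background in input 1 and input 2, and 22.0 and 20.5 times as dense in pull-down 1 and pull-down 2. On the log2 scale this contrast averaged 4.41 ± 0.07 for the pull-downs and 2.11 ± 0.27 for the inputs (SD, n = 2 each), a difference of 2.30. An exact permutation test of 2 lists against 2 cannot give a two-sided p below 0.333, which is the p found here. In the shortened lists of equal length this difference was -0.33.

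Few plus-strand peaks lay on either side of PVT1. In the 50 kb before its start the plus strand held 1, 1, 0 and 2 peaks in the lists as ordered above, none of them 50 bases or wider, and in the 50 kb past its end 0, 0, 0 and 1, the last of them wide. The gene itself held 306 sense peaks in the pull-downs against 14 on the opposite strand. By list the antisense peaks of PVT1 numbered 2, 2, 8 and 6, and per 10000 listed peaks the inputs (0.681 and 0.473) and pull-downs (0.833 and 0.539) overlapped. Over the 4 lists they fell on 11 positions, 2 of which stood in all 4 lists, and the widest was 37 bases. The map of peaks by strand shows the PVT1 stretch and the sparse plus strand on either side of it.

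**Figure D2:**
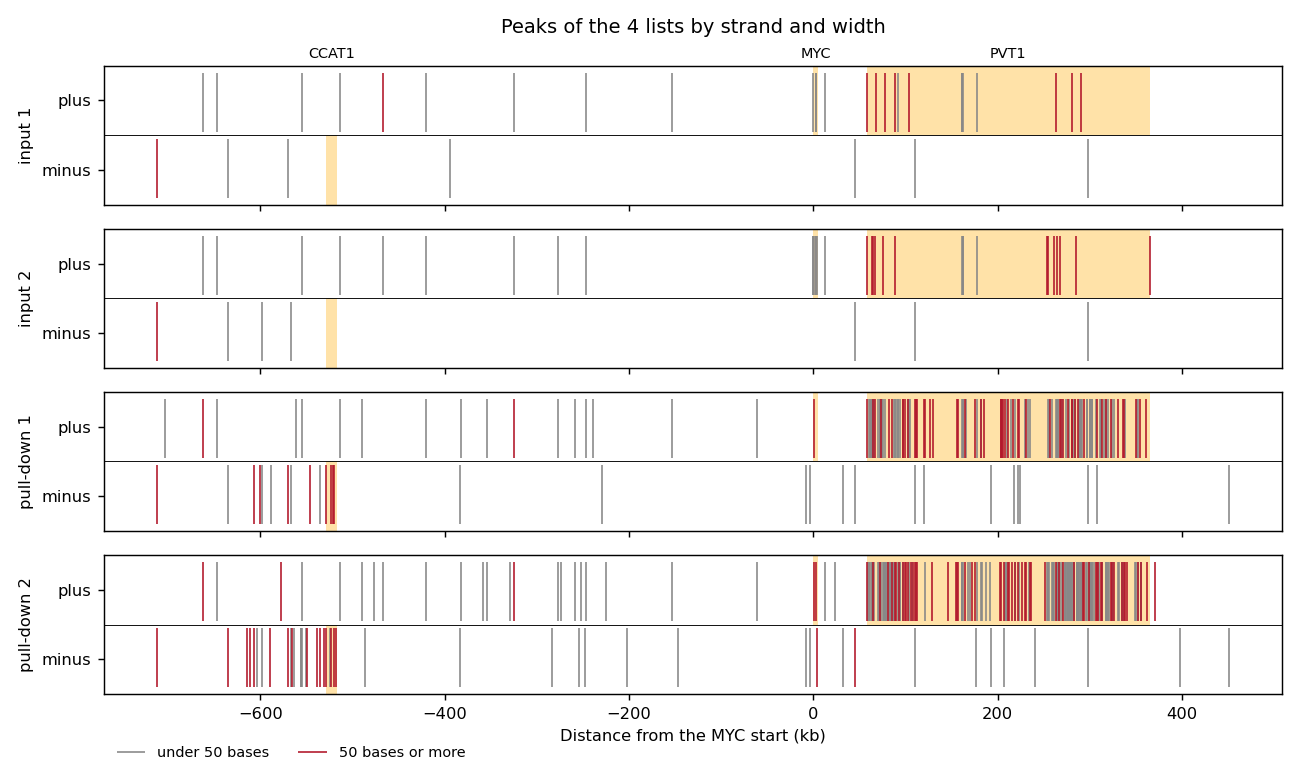
Midpoints of all peaks in the 4 lists over the surrounding 1200 kb, as distance from the MYC start in kb, with the plus strand above and the minus strand below each midline. Shading marks PVT1 and MYC (plus) and CCAT1 (minus), grey lines are peaks under 50 bases and red lines peaks of 50 bases or more; the 129 and 177 PVT1 peaks of the pull-downs fill the gene, and red minus-strand lines gather at CCAT1 and to its left.

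Within PVT1 the peaks were spread along nearly the whole gene. Of 31 bins of 10 kb, 27 held a peak in pull-down 1 and 30 in pull-down 2, against 9 in each input. The median gap between neighbouring peaks was 1.49 kb in pull-down 1 and 1.05 kb in pull-down 2. In 4 equal stretches from the 5′ end, pull-down 1 held 43, 19, 31 and 36 peaks and pull-down 2 held 51, 25, 52 and 49, so the second stretch was the sparsest in both lists. The longest gap without a peak ran from 71.1 to 97.3 kb after the start in pull-down 1 and from 70.4 to 87.7 kb in pull-down 2. The bin with the most peaks was the first 10 kb in pull-down 1 (11 peaks) and the bin from 220 to 230 kb in pull-down 2 (13 peaks). Over the 31 bins the counts of the 2 pull-downs had a Pearson correlation of 0.81 and those of the 2 inputs 0.74, a description across bins of 1 gene.

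**Figure D3:**
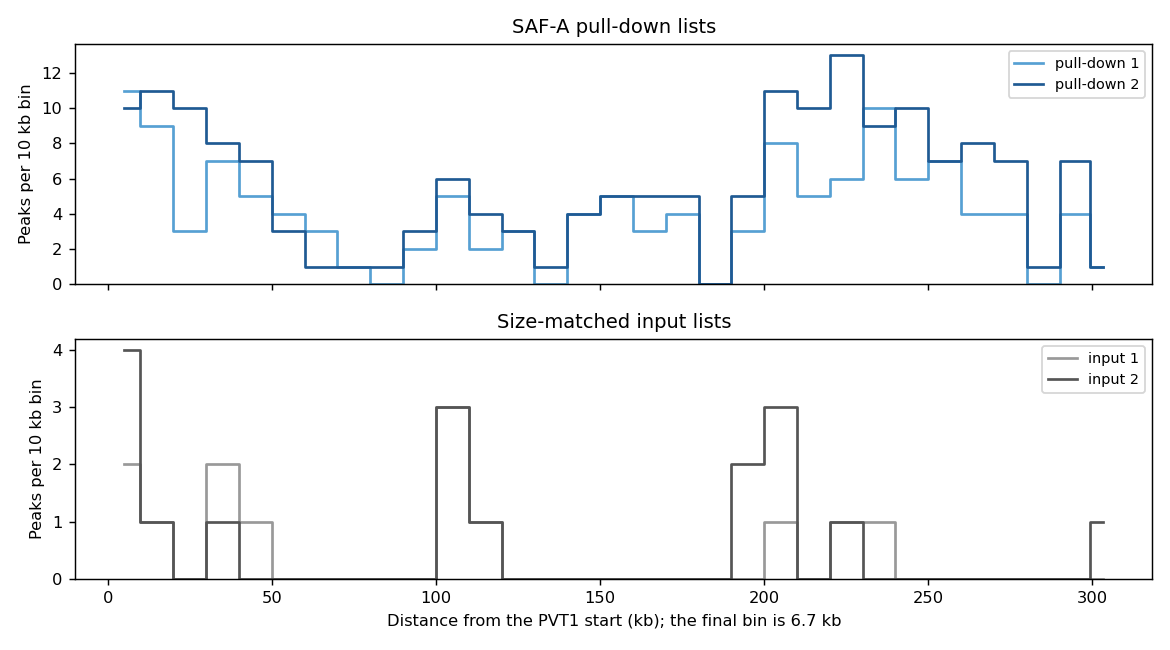
Number of sense peaks per 10 kb bin along PVT1, as distance from its start in kb, for the 2 pull-down lists (top) and the 2 input lists (bottom), on different vertical scales. From 70 to 90 kb each pull-down has at most 1 peak per bin, and from 200 to 210 kb they have 8 and 11, while each input has peaks in 9 of 31 bins.

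At the level of positions, overlapping PVT1 peaks of the 4 lists merged into 245 positions. Of these, 6 stood in all 4 lists, 55 in both pull-downs and neither input, 59 in pull-down 1 alone, 107 in pull-down 2 alone and 7 in inputs alone. Joining overlapping peaks of the pull-downs gave 67 sites shared by both, of which 55 overlapped no input peak, or 82.1% (95% Wilson interval 71.3 to 89.4). Across the genome 35889 of 62968 shared sites were free of input peaks, 57.0%, and in the local background 4 of 13 on the plus strand and 7 of 15 on the minus strand. Wide sites, of 50 bases or more, made up 39 of the 67 shared PVT1 sites against 20.2% of shared sites genome-wide.

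The 5 shared PVT1 sites with the best mean score rank in the pull-downs reached from the start of the gene to 213 kb after it, most of them near the start. The first, chr8:129019298-129019461, was 164 bases wide, lay 213 kb from the start, had scores of 29 in pull-down 1 and 61 in pull-down 2 and overlapped no input peak. The next, chr8:128806784-128806927, lay within 0.08 kb of the annotated start and stood in all 4 lists, with pull-down scores of 37 and 42. In each input list the peak over this start was also the best-scoring PVT1 peak, with scores of 45 and 49. The others lay at chr8:128824316-128824352 (17.6 kb from the start, scores 28 and 37), chr8:128926488-128926513 (119.7 kb, 24 and 36) and chr8:128821197-128821241 (14.4 kb, 21 and 42). Only the last of these 3 overlapped no input peak. Those 3 sites were 37, 26 and 45 bases wide, so 2 of the 5 best sites were wide. The highest single score, 298 in pull-down 2 for a 34-base peak at chr8:128918681-128918714, stood in no other list and was picked out after its value was seen.

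PVT1 peaks were wider than the peaks of the whole lists, and the narrow ones among them scored lower in the pull-downs. The median width was 97, 76, 43 and 39 bases in input 1, input 2, pull-down 1 and pull-down 2, against 14 to 16 in the whole lists. Peaks of 20 to 49 bases made up 44.2% and 52.5% of PVT1 peaks in the pull-downs but 17.4% and 18.8% of the lists. Peaks of 50 bases or more made up 61.5%, 76.5%, 41.1% and 34.5% in the same order. Both pull-downs lay below both inputs here, with a mean difference of -31.2 percentage points (exact two-sided permutation p = 0.333, the smallest that 2 against 2 allows), although the inputs held only 13 and 17 peaks. In the whole lists wide peaks made up 22.1%, 26.6%, 16.2% and 19.2%. Both pull-downs thus lay below both inputs there too, with a mean difference of -6.6 percentage points. How many other features separated in this way is not given, so the separation alone does not set PVT1 apart. With the better-scoring 50% of each list the difference in PVT1 was 7.15 percentage points. The authors' score had a median of 13 in PVT1 in each pull-down, and 80.6% and 82.5% of PVT1 peaks scored under 20 against 50.8% and 52.3% of the lists. By width, narrow PVT1 peaks had a median score of 12 in each pull-down against 20 in the lists, whereas wide PVT1 peaks had medians of 16 and 15 against 14 and 14.

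Against other peak-rich stretches PVT1 did not stand out in width and stood out less in score. Among 897 features with at least 10 pull-down peaks, the share of wide peaks was 37.3% in PVT1 and 42.1% in the median feature. A higher share of wide peaks than in PVT1 was found in 497 features. Its share of peaks scoring under 20 was 81.7% against a median of 70.6%, and 219 features had a higher share. These are descriptions of the lists, with no test.

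**Figure D4:**
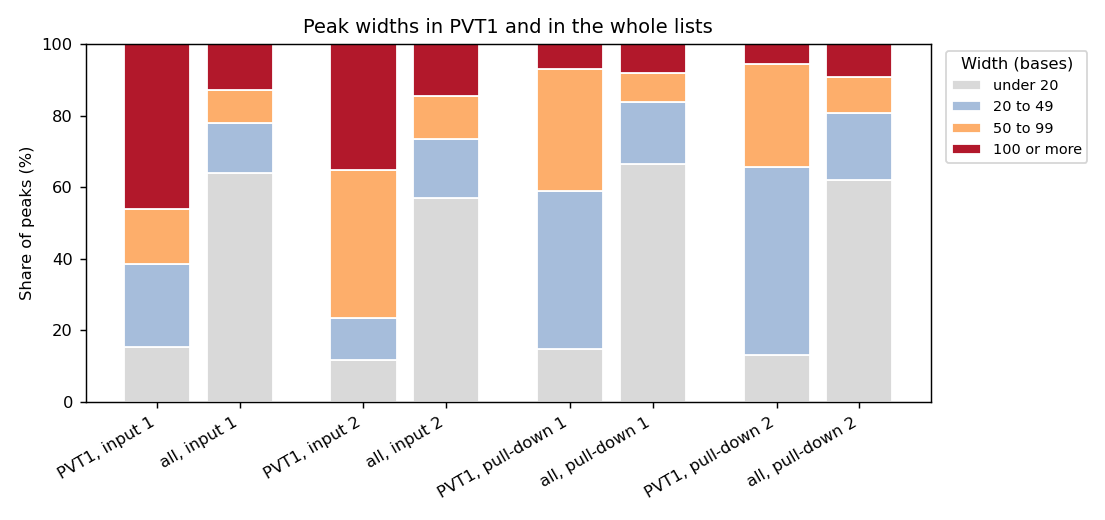
Share of peaks in 4 width classes (stacked bars, percent), for PVT1 and for the whole list, in each of the 4 lists. In the pull-downs the class of 20 to 49 bases takes 44.2% and 52.5% of PVT1 peaks against 17.4% and 18.8% of all peaks, and in the PVT1 bars of the inputs the classes of 50 bases or more take 61.5% and 76.5%.

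Taking all widths, a smaller share of PVT1 peaks than of all pull-down peaks was found in the other pull-down, and low-scoring peaks were found again least, in PVT1 as in the whole lists. Of the 129 peaks of pull-down 1, 52.7% (95% Wilson interval 44.1 to 61.1) overlapped a peak of pull-down 2, against 65.6% of the whole list. Of the 177 peaks of pull-down 2, 37.9% (31.0 to 45.2) overlapped a peak of pull-down 1, against 56.7%. Among wide peaks alone the shares were 49.1% (36.1 to 62.1) and 49.2% (37.1 to 61.4) in PVT1 against 56.3% and 41.1% in the lists, so both list values lay within the intervals. Among narrow peaks they were 55.3% (44.1 to 65.9) and 31.9% (24.1 to 40.8) against 67.4% and 60.4%, both outside. For scores of 10 to 14 the shares were 42.3% and 24.8% in PVT1 against 50.5% and 35.0% in the lists. For scores of 15 to 24 they were 70.0% and 61.5% against 72.7% and 64.5%, and for 25 or more 63.6% and 66.7% against 73.8% and 71.4%. The list value lay outside the PVT1 interval in 1 of these 6 classes, scores of 10 to 14 in pull-down 2 (17.8 to 33.3). Input peaks overlapped 10.9% and 8.47% of PVT1 pull-down peaks against 29.9% and 26.6% of the lists. Within score classes PVT1 lay below the list in each of the 6 classes, but its 95% Wilson intervals, some from few peaks, all held the list value. For scores of 10 to 14 the shares were 5.13% (2.01 to 12.5) and 3.42% (1.34 to 8.46) against 9.54% and 8.06%. For 15 to 24 they were 17.5% and 10.3% against 21.7% and 18.3%. For 25 or more, with 11 and 21 PVT1 peaks, they were 27.3% (9.75 to 56.6) and 33.3% (17.2 to 54.6) against 53.6% and 50.3%. These values do not settle whether PVT1 differs from peaks of like score.

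**Figure D5:**
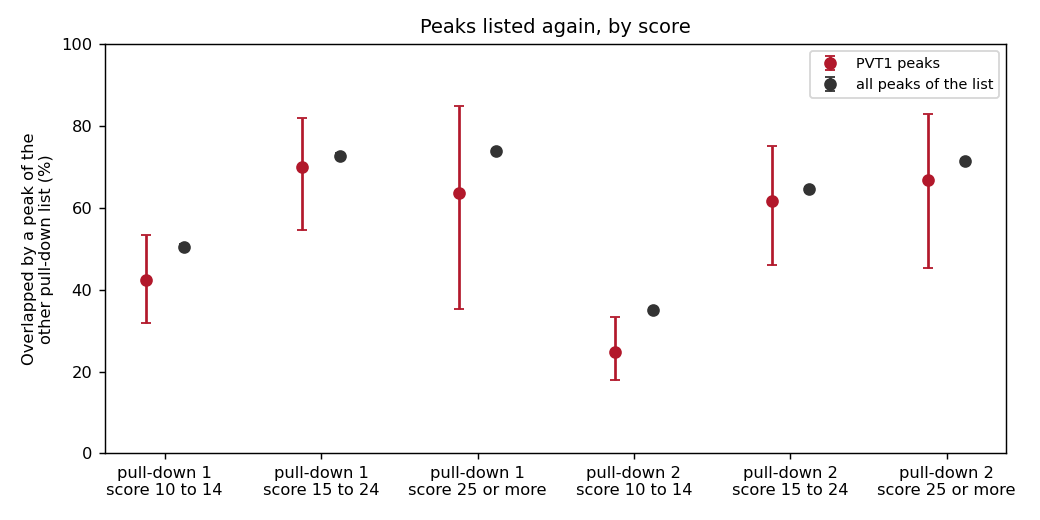
Share of pull-down peaks that overlap a peak of the other pull-down list (percent), by the authors' score and by list, for PVT1 (red) and the whole list (black); bars are 95% Wilson intervals. At scores of 10 to 14 the PVT1 points are 42.3% and 24.8% against 50.5% and 35.0%, and only in pull-down 2 does the interval there end below the whole-list value; in the higher classes the intervals reach it.

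The windows most like PVT1 in their counts over the 4 lists were found on other chromosomes. Per 100 kb PVT1 held 4.24, 5.54, 42.1 and 57.7 peaks in input 1, input 2, pull-down 1 and pull-down 2. The nearest window by Euclidean distance on the log2 scale, chr4:30900001-31000000 on the plus strand, held 4, 6, 38 and 64 (distance 0.24). The windows that followed were chr17:70500001-70600000 on the minus strand, with 4, 9, 44 and 61 (0.66), and chr9:21800001-21900000 on the plus strand, with 5, 8, 33 and 50 (0.67). Of 47750 windows of 100 kb with a peak in at least 1 list, 20 were denser than PVT1 in pull-down 1 and 19 in pull-down 2, against 496 and 693 in the inputs. The PVT1 value is a mean over 306.7 kb and each window is a single stretch of 100 kb, so the lengths compared are unlike.

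MYC went the other way on few peaks. Its 3 and 5 input peaks amounted to 1.02 and 1.18 per 10000 listed peaks and its 1 and 2 pull-down peaks to 0.104 and 0.180, so both pull-downs lay below both inputs. Lower shares in the pull-downs were common: 39.8% of the 1029 features in the limma fit were called lower, and the median log2 difference was -0.59. How many features had both pull-downs below both inputs is not given, so the separation alone does not set MYC apart. Pooled over the lists of a group, the share was 7.72 times higher in the inputs (exact 95% interval 1.85 to 45.2, counting error only). Relative to the local plus-strand background per kb, the log2 difference between pull-down and input was -2.50 (exact two-sided permutation p = 0.333). The pooled log2 difference, -2.95 with the whole lists, was -1 with lists of equal length and -0.53 with the better-scoring 50% of each list.

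The peaks of MYC also differed in place and width between the groups. All 8 input peaks were narrow, 10 to 30 bases, with scores of 10 to 20, and they ran from the annotated start to 4.57 kb after it. All 3 pull-down peaks were wide. The pull-downs shared 1 site, chr8:128749509-128749675, 167 bases wide and 1.28 kb from the start, with scores of 39 and 45 that put it in the top 21.9% and 17.1% of the lists, and no input peak overlapped it. The other pull-down peak, chr8:128751150-128751221 in pull-down 2, had a score of 11 and overlapped peaks of both inputs. On the opposite strand MYC held 1 peak of 60 bases in pull-down 2 and none elsewhere. MYC peaks merged into 6 positions, 4 of them in inputs alone.

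CCAT1 had no input peak. A count of 0 allows up to 3 peaks, or 0.419 per 10000 listed peaks over both inputs, and the 8 pull-down peaks came to 0.386 per 10000, below that floor, so no fold is given. In a fit with a lower minimum mean of 2 peaks, CCAT1 had an adjusted p of 0.0999 by limma. With no minimum its adjusted p was 0.0477 by limma. CCAT1 entered both fits only through the pull-downs, and its log2 difference there depends on the constant added to each count. These p-values therefore support nothing. The 4 peaks of each pull-down had scores of 10 to 27, and 7 of the 8 were wide. Both pull-downs listed the sites chr8:128228292-128228471 (scores 10 and 27) and chr8:128224877-128224990 (13 and 17), 2.95 and 6.40 kb from the 5′ end. Each pull-down also had 2 CCAT1 peaks of its own, and the opposite strand held none in any list.

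Minus-strand peaks went on past the 3′ end of CCAT1. In the 100 kb downstream the minus strand held 1, 2, 8 and 19 peaks in input 1, input 2, pull-down 1 and pull-down 2, or 0.340, 0.473, 0.833 and 1.71 per 10000 listed peaks. None of the input peaks there was wide, against 4 and 11 of the pull-down peaks, and the wide ones reached 78.5 and 86.3 kb past the gene end. The plus strand of the same stretch held 1, 1, 2 and 2 peaks, and the 100 kb upstream of CCAT1 held no wide minus-strand peak in any list. In the order of RefSeq genes of GRCh38.p14 the neighbours on the downstream side are CASC19, SRRM1P1, PRNCR1, PCAT2 and PCAT1, and the peaks were not assigned to them. The local minus-strand background as a whole held 7, 7, 25 and 41 peaks. Its log2 difference of 0.56 (SE 0.30, adjusted p = 0.136 by limma) did not pass the test, and it was 1.17 (adjusted p = 0.0045 by limma) when each list was centred on its median window.

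The genes took different orders by peak density in the 2 groups. Per kb of gene, the pull-downs averaged 0.499 ± 0.111 peaks in PVT1, 0.342 in CCAT1 (4 peaks in each list) and 0.280 ± 0.132 in MYC (SD, n = 2), and the values of MYC and CCAT1 overlapped. The local background lay lower, at 0.0278 ± 0.0095 on the minus strand and 0.0237 ± 0.0064 on the plus strand, which overlapped each other. In the inputs MYC averaged 0.745 ± 0.264 peaks per kb and PVT1 0.0489 ± 0.0092, with CCAT1 at 0. Counts per kb follow list length, so these orders hold within a group only, and for MYC and CCAT1 they rest on 1 to 5 peaks per list.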

How the data were processed

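Each sample has its own peak list, as deposited by the authors. A list gives positions in bases, a strand and a whole-number score of at least 10, whose meaning is not stated; the score deposited by the authors served to order or select the peaks of a list. GRCh38, STAR and featureCounts stand in the submitters' processing notes without versions, while 182 of 14175 chromosome 8 peaks end past the GRCh38 chromosome end and 0 past the GRCh37 end, so positions were read as GRCh37. The peak caller is not given in the sources used here. No annotation of that build was used, so exons, introns and UTRs are not given.

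Peaks were counted per gene and per 100 kb window and strand. log2 of (count + 0.5) per 10000 listed peaks was fitted with limma 3.58.1 in R 4.3.3 (lmFit, eBayes with trend, minimum mean of 5 peaks, adjusted p of 0.05). The fit was also run on simulated counts. These held no spread between samples of a group beyond counting error, so they cannot show its error rate on the real lists. Windows left out peaks of the genes and their local background. Peaks overlapping by at least 1 base on the same strand counted as shared. Named were the 3 genes, the 3 windows most like PVT1, the 5 best-ranked shared PVT1 sites and all shared MYC and CCAT1 sites. The genes and lists were chosen with earlier results of these data known. Alternatives changed the fit, windows, peak sets, strand, overlap and lists.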

Additional observations from a re-analysis of the deposited data

How the results depend on the processing

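Window size, minimum mean and the replicate block leave the log2 difference of PVT1 at 1.75 by construction and change its adjusted p alone. Leaving out each list in turn gave log2 differences of 1.63 to 1.87, given without a p-value because a group then held a single list. The log2 difference of PVT1 stayed positive under 18 of 19 alternatives, and past the threshold in limma in those of the 18 that kept all 4 lists. It did not with lists of equal length (-0.25), where the contrast with the local plus strand was also reversed (-0.33), the local plus strand stood at 0.066, MYC at -1, CCAT1 kept 0 peaks, PVT1 kept 0 input-free shared sites, its peaks were listed again in 16.7% and 11.1%, and 96 features were called rather than 561. With the better-scoring 50% of each list these were MYC -0.53, CCAT1 1 peak, 10 sites, a wide-share difference of 7.15 percentage points rather than -31.2, and 77 features. Narrow peaks alone gave 1 CCAT1 peak, 27 sites, 40.8% and 26.7% listed again, 150 features and a called local plus strand (-0.80); wide peaks alone gave 19 sites, 37.7% for pull-down 1 and 167 features. Centring gave 0.064 for the local plus strand and 1.17, called, for the minus strand. With no filter the local strands were called (-0.54 and 0.56) and 5759 features in all; minimum means of 2 and 10 called 2861 and 144. MYC and CCAT1 had limma values of -2.73 and 1.62, with adjusted p of 3.5e-07 and 0.0999 at a minimum of 2 and 7.6e-06 and 0.0477 with no filter; each reached that minimum only through the group where it is higher, so these p-values support nothing, and the value of CCAT1 depends on the 0.5 added. Both strands together gave 856 features and MYC at -2.53. An overlap of 50% of both peaks gave 41.9% and 30.5% listed again. Leaving out 1 list gave 330 to 489 called features, the fewest without input 1, MYC from -3.42 to -2.63 (its main value -2.95) and 4 CCAT1 peaks without either pull-down. Samples of the same replicate number shared little deviation (correlation of deviations 0.076), which cannot show whether they were paired. With the replicate block PVT1 had a log2 difference of 1.75 (adjusted p = 7.8e-15 by limma) and 602 features were called. A block fitted to 4 lists leaves little spread to measure, so that p-value rests mostly on variance pooled over features. The effect of read depth could not be examined from peak lists.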
